A study of Mus musculus with 74 samples.

Results

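The 10 genes described here encode subunits of voltage-gated calcium channels and were named by symbol and not by a threshold on a measured value, although earlier results of these data were known when they were chosen. They are 10 of the 53379 genes counted in every library. There are 5 pore-forming α1 subunits (Cacna1a, Cacna1b, Cacna1c, Cacna1e and Cacna1h), 3 α2δ subunits (Cacna2d1, Cacna2d2 and Cacna2d3) and 2 β subunits (Cacnb3 and Cacnb4). All 10 passed the filter on low counts in every comparison.

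RNA-seq of the dorsal root ganglion (DRG), which holds the cell bodies of sensory neurons with their satellite glia and Schwann cells, was used to ask how a spinal cord injury (SCI) and a peripheral injury change these neurons. Whole L4 ganglia came from female C57BL/6 wild type mice of 10 to 12 weeks, 4 uninjured and 4 taken 1d after SCI. Sorted neurons came from female mice of the strain labeled Thy1YFP16, aged 10 to 20 weeks, in which a neuronal Thy1 promoter drives YFP, and about 100 YFP-positive cells were sorted into each well after enzymatic dissociation. There were 6 naive mice, 3 labeled 1d and 3 labeled 3d and pooled here as 1 control for both times, and 4 mice each at 1d and 3d after SCI, a dorsal hemisection at T9/10, or after sciatic nerve injury (SNI), a crush, with 3 wells per mouse. Sorting aimed at neurons that carry the transgene and survived dissociation, although in some wells, given below, glia markers outnumbered neuron markers. The genotype label of these mice carries a number that changes from library to library. The reads of the 3 wells were summed and a mouse was counted as 1 sample.

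A voltage-gated calcium channel opens when the membrane depolarizes, and the calcium that enters triggers transmitter release and signals to the nucleus. The α1 subunit forms the pore and sets the current type, the β subunit binds it inside the cell and brings it to the membrane, and the extracellular α2δ subunit aids trafficking and surface expression. In sensory neurons, N-type channels act at the central terminals that contact the spinal cord, T-type channels set excitability near rest, and α2δ-1 is the target of gabapentin and pregabalin, used against neuropathic pain.

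Most members are long genes. Cacna2d1 lies on chr5:15934691-16374511 of GRCm38, on the plus strand, and spans 440 kb with 12416 bases of exon. Cacna2d3 was the longest at 817 kb (chr14:28904943-29721864) and Cacnb3 the shortest at 13.7 kb (chr15:98630840-98644529). No member shared exon bases with an annotated gene on its own strand. On the opposite strand, 16.0% of the exon bases of Cacnb4 lay under A430018G15Rik, 3.81% of Cacna1a under Gm16183, 1.62% of Cacna1h under Tpsg1 and 1.03% of Cacna2d2 under Gm17141. Whether counting used strand is not given in the sources used here, so reads of these 4 genes could include reads of their partners.

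Upstream sequence is shown for Cacna2d1, the member whose level differed most clearly after SNI, and for Cacna1b, the α1 subunit whose level in sorted neurons ran closest to it. The letters are the 250 bases before the RefSeq start on GRCm38.p6, written 5′ to 3′ on the gene's strand. Capitals mark TGACG, the repeated unit of the cyclic AMP response element. The Cacna2d1 stretch is chr5:15934441-15934690 on the plus strand and the Cacna1b stretch is chr2:24763153-24763402 on the minus strand.
Cacna2d1: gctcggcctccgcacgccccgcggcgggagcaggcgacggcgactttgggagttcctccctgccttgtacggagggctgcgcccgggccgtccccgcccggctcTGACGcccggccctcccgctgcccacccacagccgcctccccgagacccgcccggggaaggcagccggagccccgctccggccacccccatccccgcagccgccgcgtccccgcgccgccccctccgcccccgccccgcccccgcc
Cacna1b: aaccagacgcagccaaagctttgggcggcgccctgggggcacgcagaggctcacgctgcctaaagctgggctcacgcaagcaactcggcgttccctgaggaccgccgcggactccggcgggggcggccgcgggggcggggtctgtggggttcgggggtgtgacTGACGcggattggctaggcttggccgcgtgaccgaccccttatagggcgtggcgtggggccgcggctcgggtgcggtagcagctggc

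The RefSeq table held promoters for 8 of the 10 members (13 promoters). TGACG, or CGTCA on the other strand, occurred in 1 promoter each of Cacna2d1, Cacna1b and Cacna1c, with its first base 146, 87 and 161 bases before the start. The same letters occurred in 17.8% of all 32851 promoters. The AP-1 letters TGACTCA, or TGAGTCA, occurred in no member promoter and in 4.46% of all promoters. The letters CCCTCCC, or GGGAGGG, occurred in 5 of the 13 member promoters, from 4 members (Cacna2d1, Cacna2d2, Cacna2d3 and Cacnb3), and in 19.7% of all promoters. The Cacna2d1 stretch was 82.4% G and C, against a median of 52.4% over all promoters. These matches describe the letters alone.

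Libraries that stood apart were those of sorted neurons. Reads on genes ran from 21959030 to 44493319 per mouse in whole DRG and from 30518187 to 83599972 per mouse in sorted neurons. In 20 of the 66 wells, from 14 of the 22 mice, reads of 12 glia markers such as Mbp outnumbered reads of 10 neuron markers such as Tubb3 and Snap25, against their label of sorted neurons. Glia markers took 3.42% to 15.0% of reads in these glia-rich wells and 0.341% to 1.63% in the other 46. Neuron markers took 0.00891% to 2.06% (median 0.0478%) in the glia-rich wells and 1.43% to 4.44% (median 3.51%) in the others, so these ranges overlapped. All 3 wells of SNI 3d replicate 3 and SCI 3d replicate 3, and 2 of 3 wells of naive replicates 5 and 6, were glia-rich. Fits in sorted neurons were therefore made with all wells and without the glia-rich ones, which drops the first 2 of these mice. Other cell types were also read in the glia-rich wells. Markers of fibroblasts took 0.0131% to 5.80% of reads there and 0.000205% to 0.191% in the other wells, and markers of macrophages 0% to 1.40% and 0% to 0.00435%.

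The members were low in the glia-rich wells. Together they took a median of 0.000612% of reads there and 0.0451% in the other wells. The median level of Cacna2d1 was 138 CPM, counts scaled to a library total of fixed size, in the other wells and 1.19 CPM in the glia-rich ones. For Cacnb4 it was 96.0 and 0.714 CPM, and for Cacna1b 46.4 and 0.256 CPM. Within the 12 mice with wells of both kinds, Cacna1b and Cacna2d3 were higher in the other wells in 12 of 12, Cacna1a, Cacna2d1, Cacnb3 and Cacnb4 in 11, Cacna1c in 10, and Cacna1e and Cacna2d2 in 8. Cacna1h, a T-type pore subunit, was higher in 5 of 12 and at 0 reads in 26 of the 46 other wells. A mouse at 0 in both kinds, such as SNI 1d replicate 1 for Cacna1h, did not count as higher. The remaining mice were thus not all higher in the glia-rich wells.

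**Figure D1:**
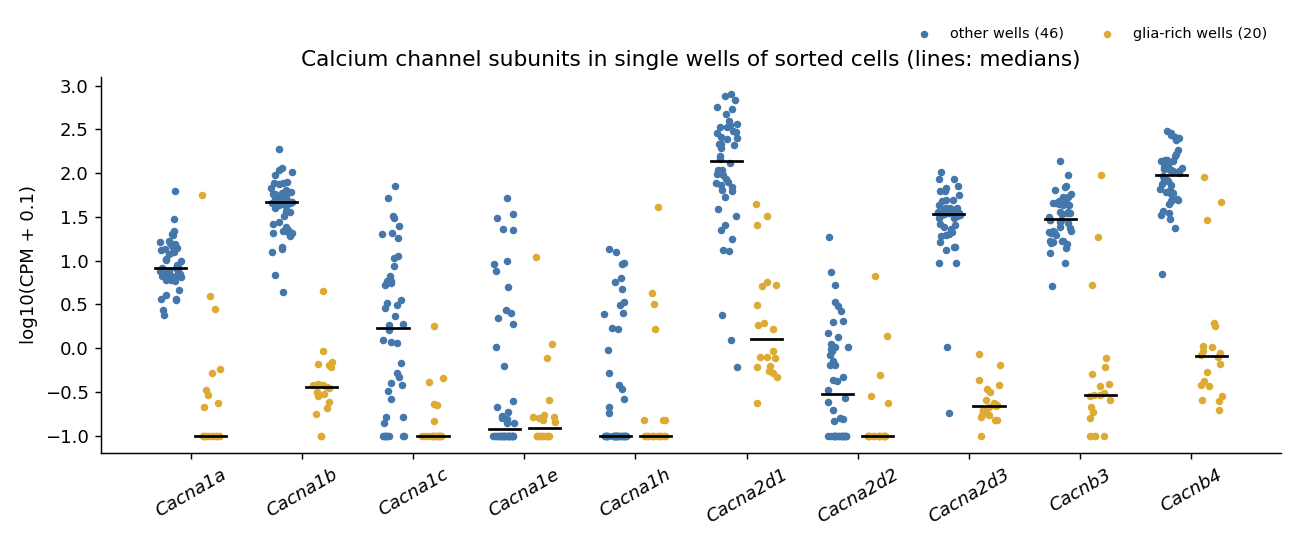
Level of each member, as log10(CPM + 0.1) on the vertical axis, in each of the 66 wells of sorted cells, with the 46 other wells and the 20 glia-rich wells in separate columns and a line at each median. Cacna1a, Cacna1b, Cacna1c, Cacna2d1, Cacna2d3, Cacnb3 and Cacnb4 have a glia-rich median more than 1 unit below that of the other wells. The medians of Cacna1e and Cacna1h lie at the foot of the axis for both kinds.

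Levels between genes were compared as CPM per kb of exon. In uninjured whole DRG, Cacnb3, the β subunit found with N-type channels, stood at 67.1 ± 4.73 CPM per kb (SD, n = 4). Its median lay above that of 96.3% of the genes with a mean of at least 10 reads in this group. Cacna2d1 followed at 21.5 ± 1.82. Cacna1b, the N-type pore, was at 13.3 ± 0.519 and Cacnb4, a β subunit of presynaptic channels, at 12.9 ± 0.594, and their ranges overlapped. Next came Cacna2d3, an α2δ subunit linked to heat nociception, at 8.02 ± 0.552, Cacna1h at 7.31 ± 1.35 and Cacna1a, the P/Q-type pore, at 6.61 ± 0.848. Each of these 3 overlapped its neighbor. Cacna1c, the L-type pore, and Cacna2d2, the α2δ subunit that gabapentinoids also bind, overlapped at 3.85 ± 0.298 and 3.76 ± 0.349. Cacna1e, the R-type pore, was lowest at 0.453 ± 0.0536. Its median lay above that of 19.5% of the genes with a mean of at least 10 reads.

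In naive sorted neurons the order by median was Cacnb3 (10.8 CPM per kb), Cacnb4 (9.00), Cacna2d1 (6.62), Cacna1b (3.32), Cacna2d3 (2.31), Cacna1a (0.706), Cacna1c (0.358), Cacna2d2 (0.119), Cacna1e (0.0846) and Cacna1h (0.0727). Every neighboring pair in that order overlapped over the 6 mice, so no single step in it exceeded the spread between mice. Cacna1h thus stood sixth in whole ganglia and last in the sorted cells.

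**Figure D2:**
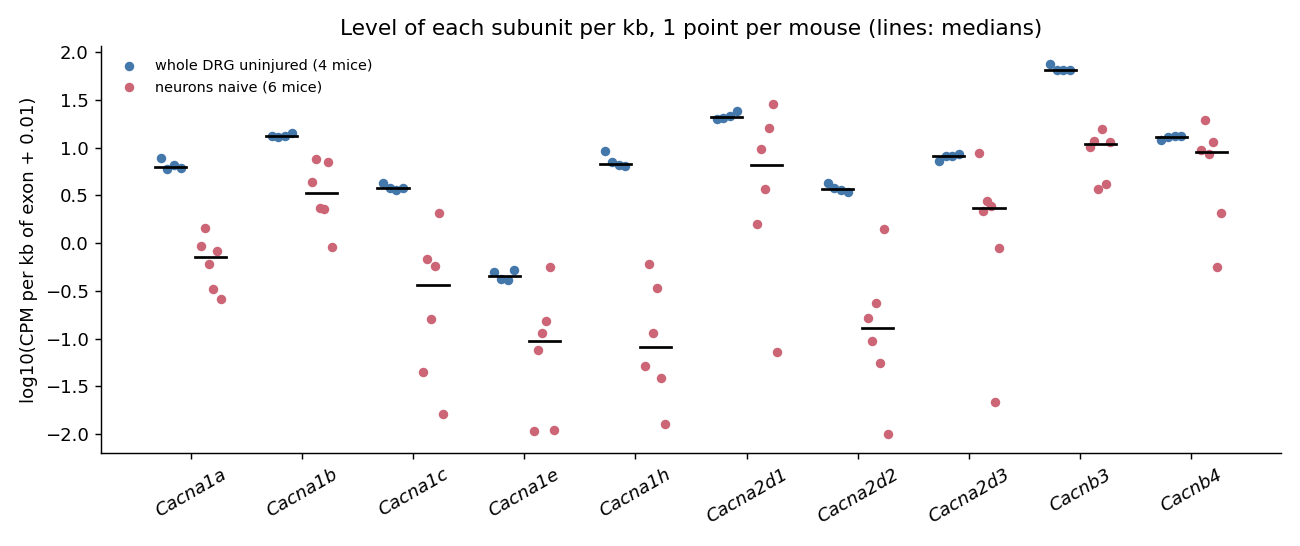
Level of each member as log10 of CPM per kb of exon plus 0.01, for each mouse of uninjured whole DRG and of naive sorted neurons. Cacnb3 is highest and Cacna1e lowest in whole DRG, and the points of the 6 naive mice spread far wider than those of the 4 uninjured ganglia.

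The 2 preparations were then set against each other, which asks which members are lower in sorted cells than in the ganglion. Kit, dissociation, strain and cell makeup all differ between them and cannot be told apart, nor can fewer cells of a type and less RNA per cell in such bulk libraries. Lower in the sorted cells were 3 of the 10 members. These were Cacna1a by 2.43 on the log2 scale (SE 0.49, adjusted p = 0.00456), Cacna1h by 4.61 (SE 1.07, adjusted p = 0.00962) and Cacnb3 by 2.04 (SE 0.41, adjusted p = 0.00433), by edgeR's quasi-likelihood test with Benjamini-Hochberg adjustment over all genes, called here at an adjusted p below 0.1. Of all genes tested, 32.1% were called in either direction and 14.4% lower. The median difference was -1.42 over the members and 0.25 over all genes. Cacna1a ran from 67.9 to 89.4 CPM in the 4 ganglia and from 2.89 to 16.2 CPM in the 6 naive mice, and Cacna1h from 62.9 to 90.8 and from 0.0260 to 5.88 CPM. Neither pair of groups overlapped, and 6 of 10 members lay wholly lower in the sorted cells, against 34.8% of genes. These CPM, used also in the permutation test below, were TMM-scaled within each preparation, whereas the edgeR fit scaled both together. An offset between the 2 scales was not removed, so these counts can differ from the edgeR result. The same 3 members were called without the glia-rich wells (35.2% of genes), with differences of -2.27, -4.55 and -1.99 for Cacna1a, Cacna1h and Cacnb3. Cacnb4 (log2 difference 0.12, SE 0.68) and Cacna2d1 (-0.31, SE 1.02) did not pass the test. In an exact two-sided permutation test of log2(CPM + 1), p = 0.00952, the smallest that 6 against 4 mice allow, was reached by Cacna1a, Cacna1h and Cacnb3 and also by Cacna1b, Cacna1c and Cacna2d2. These are the same 6 members that lay wholly lower in the sorted cells, so this adds no separate count. Cacna1e and Cacna2d3 gave p = 0.0476 in this exact permutation test, Cacna2d1 gave p = 0.0762 and Cacnb4 p = 0.219.

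In whole DRG 1d after SCI, no member passed the test, and Cacna2d1 and Cacna1e were higher in every injured mouse than in any uninjured one. Cacna2d1, the α2δ-1 subunit, was at 249, 254, 264 and 299 CPM in the uninjured mice and at 326, 301, 326 and 324 CPM after SCI. The groups did not overlap, but uninjured replicate 4 and SCI replicate 2 were nearly level. The fitted log2 difference was 0.26 (SE 0.070, 95% interval 0.10 to 0.41), a 1.20-fold higher level, with p = 0.00397 and adjusted p = 0.131 by edgeR. Cacna1e was at 12.2, 10.4, 10.2 and 12.9 CPM in the uninjured mice and at 15.2, 13.7, 15.3 and 14.3 CPM after SCI. The groups did not overlap, and the gap between them was small. Its log2 difference was 0.36 (SE 0.10, interval 0.14 to 0.58), 1.28-fold, with p = 0.00475 and adjusted p = 0.137.

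The other 8 members lay between -0.05 and 0.13 on the log2 scale in that comparison, with adjusted p from edgeR between 0.601 and 0.916. For Cacnb3 (-0.04, interval -0.20 to 0.12) and Cacna2d3 (0.03, interval -0.12 to 0.18) the intervals were narrow. For Cacna1a the interval ran from -0.27 to 0.42. In all, 0 of 10 members were called, against 2.32% of the 17616 genes tested, and 2 had an unadjusted p under 0.05, against 14.6%. DESeq2 called both Cacna2d1 (adjusted p = 0.0382) and Cacna1e (0.0396), among 929 of the 17616 genes. Groups did not overlap for 2 members, both higher, against 4.92% of genes higher. The median difference was 0.08 over the members and 0.01 over all genes.

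SCI replicate 3 stood above its group. All 10 members were above the group mean in that mouse, with a median deviation of 0.25 on the log2 scale, where 2394 genes spanning over 100 kb deviated by a median of 0.08. Cacna1b was at 190.2 CPM there against 115 to 134 CPM in the other 3 mice, and Cacna1a at 108 against 64.5 to 75.2 CPM. Cacna2d1 (326 CPM) did not stand out in it. With each mouse left out in turn no member was called, and the log2 difference of Cacna2d1 stayed between 0.23 and 0.32 (adjusted p 0.103 to 0.300) and that of Cacna1e between 0.31 and 0.42 (0.111 to 0.312).

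**Figure D3:**
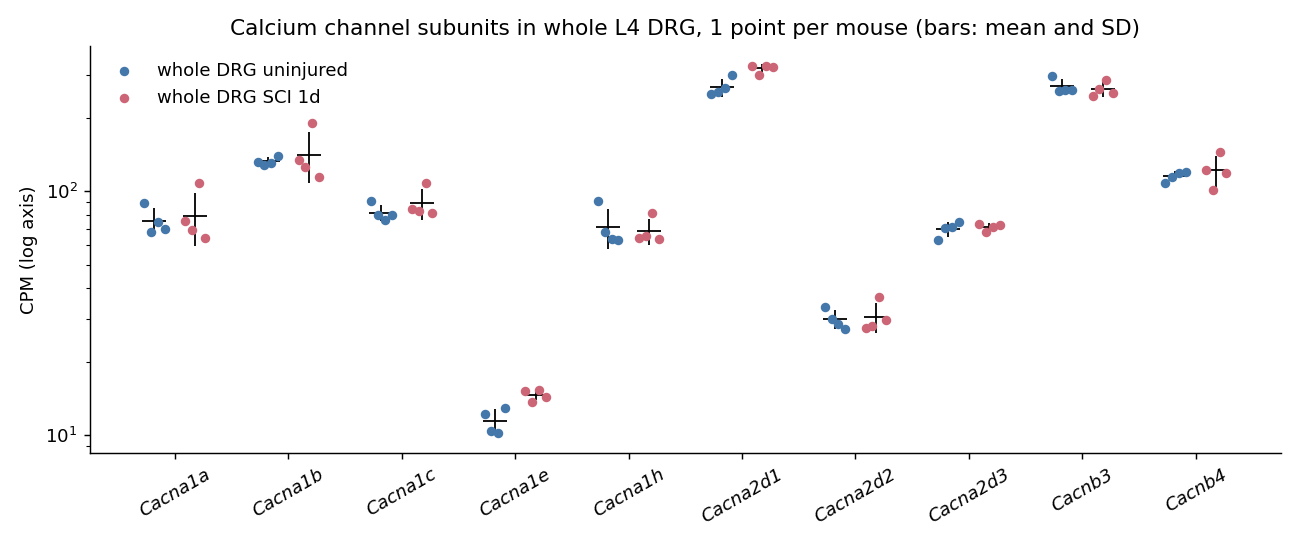
Level of each member in CPM in each whole DRG library, 4 uninjured mice and 4 mice 1d after SCI, with the group mean and SD drawn beside the points. Only the points of Cacna2d1 and Cacna1e do not overlap between groups, and SCI replicate 3 is the highest injured point for all 5 α1 subunits.

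Markers of other cells moved in the same ganglia. Of 5 skeletal muscle markers, 5 had an unadjusted p under 0.05 (14.6% of all genes) and 0 were called (2.32% of all genes). Their summed share was 0.0428% and 0.0249% of reads in SCI replicates 1 and 4, 0.000366% and 0.000266% in replicates 2 and 3, and 0.000292% to 0.00104% in uninjured mice. α2δ-1 is also a subunit of the skeletal muscle channel. Cacna2d1 was at 326 and 324 CPM in SCI replicates 1 and 4, and at 301 and 326 CPM in replicates 2 and 3. Of 5 blood cell markers, 4 were called higher (summed share 0.00133% to 0.00208% uninjured, 0.00206% to 0.00900% after SCI). Called also were 1 of 12 glia markers (higher), 2 of 8 macrophage markers (1 higher, 1 lower), 1 of 5 fibroblast markers (lower) and 0 of 10 neuron markers. The part of these cells in the members' values was not tested.

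In sorted neurons after SNI, Cacna2d1 was the 1 member called, and the call depended on which wells and factors entered the fit. With all wells, it was at 19.4, 119, 45.6, 201, 351 and 0.780 CPM in the naive mice. At 1d after SNI it was at 259, 129, 240.0 and 204 CPM, and at 3d at 407, 309, 11.4 and 402 CPM. The naive range held every SNI mouse except SNI 3d replicates 1 and 4, which were above it, so the groups overlapped. The lowest SNI value came from SNI 3d replicate 3, whose 3 wells were all glia-rich, and the lowest naive value from replicate 6, with 2 of 3.

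With all wells, the log2 difference of Cacna2d1 was 1.66 at 1d (SE 0.60, interval 0.40 to 2.91, p = 0.0123, adjusted p = 0.241) and 1.68 at 3d (SE 0.63, interval 0.35 to 3.00, p = 0.0156, adjusted p = 0.273), by edgeR with 2 factors of unwanted variation from RUVr. These are 3.15-fold and 3.20-fold. Neither passed the test. Members called were 0 of 10 at 1d (0.519% of genes) and 0 of 10 at 3d (0.442%), with 1 at an unadjusted p under 0.05 each time (14.0% and 13.2% of genes). DESeq2 called 0 at 1d and 1 at 3d, Cacna2d1 (adjusted p = 0.0887), and the shares of genes above are those of edgeR.

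Without the glia-rich wells, the fit with the RUVr factors put Cacna2d1 higher at both times. The naive mice were at 22.4, 141, 49.0, 214, 701 and 0.692 CPM. The SNI mice were at 329, 167, 333 and 233 CPM at 1d and at 495, 332 and 403 CPM at 3d. SNI 3d replicate 3, left out here, had neuron markers at 2.06%, 1.75% and 0.0132% of reads in its 3 wells. Cacna2d1 was at 0.511, 25.4 and 0.444 CPM in those wells. The well kept for naive replicate 5 had neuron markers at 1.43%. Naive replicate 5 was above all SNI mice, on 1 remaining well, so the groups still overlapped, and the other 5 naive mice were all below the 3d mice. The log2 difference was 2.10 at 1d (SE 0.50, interval 1.05 to 3.14, adjusted p = 0.0350) and 2.72 at 3d (SE 0.53, interval 1.60 to 3.83, adjusted p = 0.0208) by edgeR, 4.28-fold and 6.57-fold. The median gene shifted by 0.35 and 0.33 in these fits. Cacna2d1 was the 1 member of 10 called at each time, against 6.47% and 4.99% of genes, and the 1 with an unadjusted p under 0.05 (21.2% and 21.0% of genes).

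This call was lost with the factors of unwanted variation left out, with or without a replicate block and the set of the titles in their place. The log2 difference of Cacna2d1 without the glia-rich wells was then 0.50 at 1d (adjusted p = 0.886) and 1.13 at 3d (0.688), and with all wells 0.76 (0.904) and 1.20 (0.689). With the block and the set in place of the factors it was 0.86 (adjusted p = 0.823) and 1.76 (0.782) without the glia-rich wells. Over leave-one-out fits without the glia-rich wells it lay between 1.10 and 2.65 at 1d (called in 18 of 20) and between 1.71 and 3.28 at 3d (19 of 20). The lowest value at 1d came without naive replicate 6, 1.10 (adjusted p = 0.176). The 1d call was also lost without SNI 1d replicate 3 (0.109), and the 3d call without SNI 3d replicate 1 (0.133). With all wells, leaving out naive replicate 6 left 0.77 at 1d and 0.60 at 3d. Within the set titled FACS, a split chosen after seeing the data, without the glia-rich wells the difference was 1.40 at 1d (adjusted p = 0.446) and 2.24 at 3d (0.192). In the set titled FACS2018 the 2 naive mice, at 701 and 0.692 CPM, lay on either side of its 3 SNI mice, and no fit was made.

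**Figure D4:**
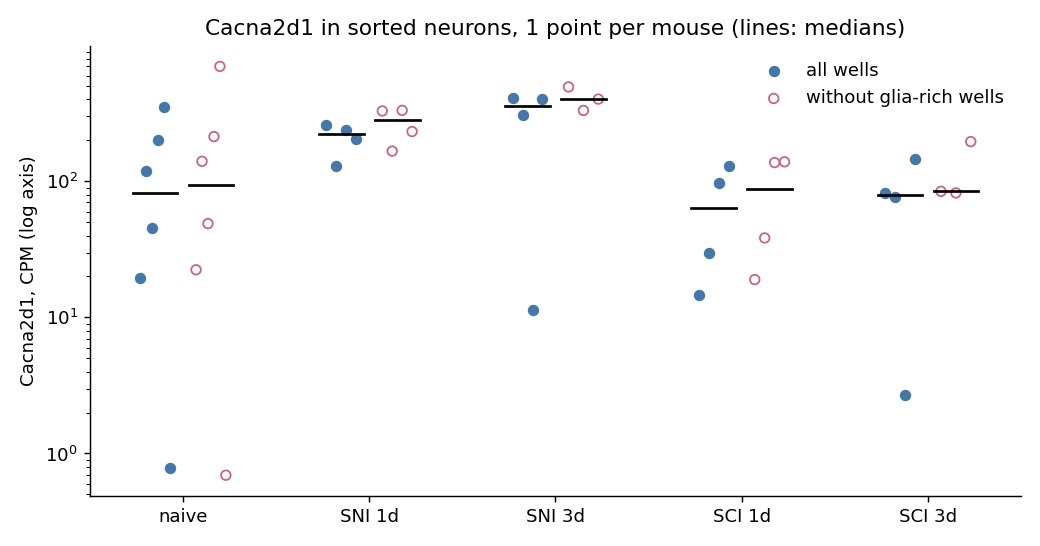
Level of Cacna2d1 in CPM, on a log axis, in each mouse of sorted neurons by group, with all wells and without the glia-rich wells. The 4 mice at 1d after SNI sit between 129 and 259 CPM with all wells, and the naive mice spread from 0.780 to 351.

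Cacna2d1 also took a large part of the reads on the members after SNI. It made up 42.3% to 60.5% of member reads in the 4 mice at 1d after SNI and 15.7% to 68.7% at 3d. In naive mice the share ran from 0.913% to 67.5%, and in whole DRG from 21.4% to 28.5%. The SD of its log2 level between wells of 1 mouse was 1.61, against 2.14 over all wells that were not glia-rich, so much of the spread lay within a mouse. For the other members the SD between wells of a mouse ran from 0.76 (Cacna1a) to 1.75 (Cacna1c).

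No other member passed the test after SNI in either set of wells, although without the glia-rich wells and naive replicate 1 Cacna2d3 did at 1d (1.81, adjusted p = 0.0549 by edgeR). Among the α1 subunits, Cacna1b was at 42.9, 76.1, 23.0, 22.5, 69.5 and 9.03 CPM in naive mice, at 46.9, 30.9, 45.6 and 60.5 CPM at 1d and at 68.8, 30.3, 0.337 and 52.5 CPM at 3d. The groups overlapped. Its log2 difference with all wells was -0.06 at 1d (SE 0.66) and -1.24 at 3d (SE 0.71). Without the glia-rich wells it was 0.30 (SE 0.35) and 0.24 (SE 0.38), with intervals of -0.43 to 1.03 and -0.56 to 1.04. The difference of Cacna1a was -0.44 (SE 0.65) and -1.02 (SE 0.67) with all wells and 0.08 (SE 0.42) and 0.37 (SE 0.45) without the glia-rich ones. The sign at 3d thus depended on those wells for both genes. For Cacna1c, Cacna1e and Cacna1h the SE ran from 1.43 to 3.50 without the glia-rich wells, so a change of several fold was not detectable.

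Cacna1c, Cacna1e and Cacna1h were found in part of the wells. Cacna1e was at 12.8 CPM in SNI 1d replicate 4 and at most 0.0749 CPM in the other 3 mice of that group. Cacna1h was at 24.6 CPM in SCI 3d replicate 3, of which 1 glia-rich well gave 40.6 CPM and the other wells 0. In that well fibroblast markers took 5.80% of reads and glia markers 3.42%, and their part in the value was not tested. At least 10 reads were found for Cacna1c in 29, for Cacna1h in 15 and for Cacna1e in 14 of the 46 other wells, against 46 of 46 for Cacna1a, Cacna1b, Cacnb3 and Cacnb4. The level of a mouse could thus rest on 1 well.

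Of the remaining α2δ subunits, Cacna2d3 ran from 0.101 to 77.1 CPM in naive mice (median 20.2) and was at 26.3, 27.2, 37.4 and 34.4 CPM at 1d after SNI. The injured mice lay inside the naive range. Its log2 difference was 1.36 (SE 0.72, adjusted p = 0.408), and 1.04 (SE 0.55) without the glia-rich wells. Cacna2d2 was at most 0.632 CPM at 1d after SNI and from 0 to 11.2 CPM in naive mice, a log2 difference of -2.81 (SE 1.38, adjusted p = 0.371), and -2.09 (SE 1.32) without the glia-rich wells.

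Of the β subunits, Cacnb3 was at 40.5, 46.5, 14.7, 62.4, 16.6 and 46.3 CPM in naive mice and at 21.0, 12.1, 23.8 and 26.6 CPM at 1d after SNI. SNI 1d replicate 2 lay below the naive range and the other 3 injured mice inside it. The log2 difference of Cacnb3 was -1.01 (SE 0.71, adjusted p = 0.571), -0.71 (SE 0.37, adjusted p = 0.280) without the glia-rich wells, and at 3d without them 0.03 (SE 0.40). At 3d with all wells it was -0.40 (SE 0.69). Cacnb4 differed by 0.70 (SE 0.73) at 1d and 0.07 (SE 0.81) at 3d with all wells, and by 0.57 (SE 0.44) and -0.75 (SE 0.50) without the glia-rich ones. Over the 10 members with all wells, the median difference was -0.37 at 1d and -1.01 at 3d, against 0.15 and -0.01 over all genes, with 3 and 2 members above 0. With those wells left out the medians were 0.44 and -0.30, against 0.35 and 0.33, with 7 and 5 members above 0.

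The glia content differed between mice of a group. Per mouse, glia markers took 0.670% to 7.76% of reads in naive mice, 0.669% to 3.78% and 0.595% to 8.59% at 1d and 3d after SNI, and 1.07% to 5.08% and 0.584% to 4.48% at 1d and 3d after SCI. Of the 12 glia markers, 1 was called higher at 1d after SNI and 1 lower at 3d without the glia-rich wells. In the same fits, 2 of 10 neuron markers were called higher at 3d, and 1 of 8 sensory subtype markers was called higher at 1d. The median difference of the neuron markers was -0.0046 at 1d and -0.03 at 3d, and that of the subtype markers 0.96 and -1.54. Their part in the values of Cacna2d1 was not tested. The part of glia in the values with all wells was not tested beyond leaving those wells out.

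In sorted neurons after SCI, no member passed the test. Cacna2d1 was at 14.6, 29.6, 97.8 and 131 CPM at 1d and at 81.9, 76.9, 2.67 and 147 CPM at 3d, inside the naive range. Its log2 difference was -0.19 at 1d (SE 0.61, interval -1.48 to 1.09) and -0.29 at 3d (SE 0.61). Without the glia-rich wells it was 0.33 (SE 0.50, interval -0.72 to 1.39) and 0.89 (SE 0.53, interval -0.23 to 2.01). All 4 intervals include no change.

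Members called after SCI were 0 of 10 at 1d (0.0468% of genes) and 0 of 10 at 3d (0.051%), with 0 and 3 at an unadjusted p under 0.05 (11.2% and 9.56% of genes), and DESeq2 called 0 and 1. The 3 were Cacna1a (-1.91, SE 0.72, p = 0.0151, adjusted p = 0.490 by edgeR), Cacna1b (-1.58, p = 0.0443 in the same fit across all genes by edgeR) and Cacnb3 (-1.61, p = 0.0457 likewise by edgeR). Cacna1a was at 7.08, 8.97, 0.0690 and 2.76 CPM at 3d. The value near 0 is SCI 3d replicate 3, with glia-rich wells only. Without such wells the differences were -0.39, -0.20 and -0.71, and 0 members were called at either time (0.0354% and 0.0% of genes), with 0 at an unadjusted p under 0.05 (16.0% and 12.3%) and 0 called by DESeq2. DESeq2 called Cacna1a with all wells (-1.93, adjusted p = 0.0213), and the shares of genes above are those of edgeR.

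**Figure D5:**
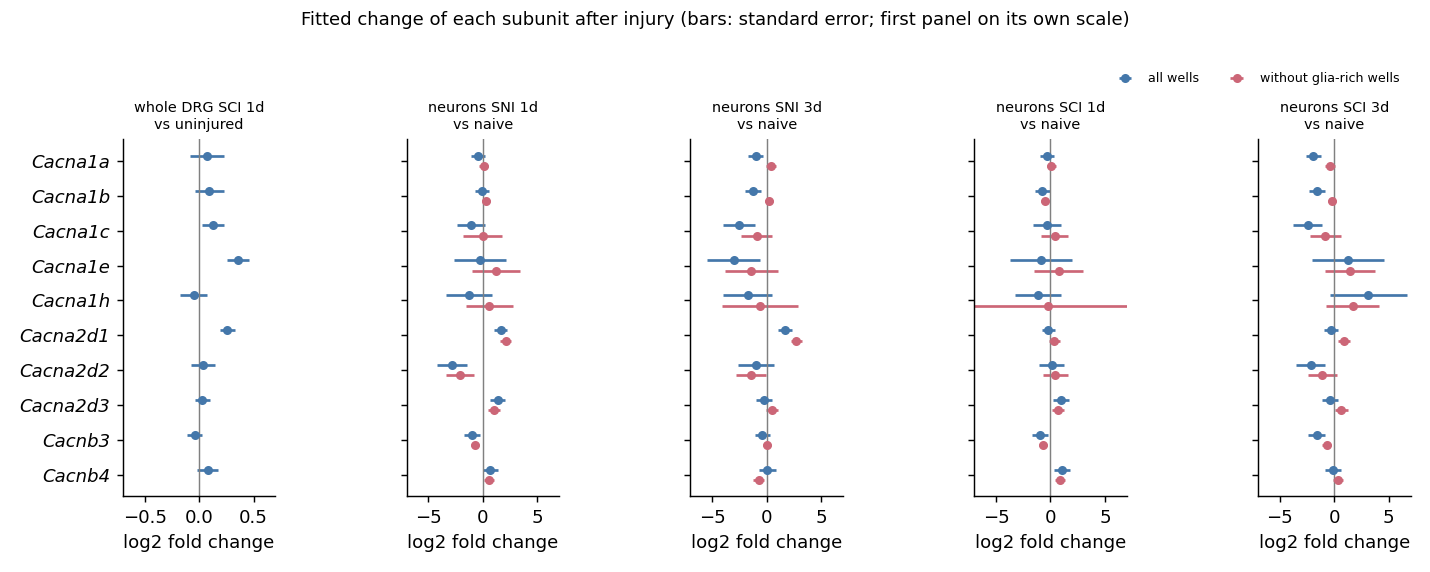
Log2 difference of each member, with SE bars, in whole DRG after SCI and, on a wider axis that cuts the longest bars, in sorted neurons 1d and 3d after SNI and after SCI, with all wells and without the glia-rich wells. Cacna2d1 lies to the right of 0 in both SNI panels.

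SNI and SCI shared the naive mice as controls, so they were also compared directly at matched times. With all wells, Cacna2d1 was higher after SNI by 1.85 on the log2 scale at 1d (SE 0.69, interval 0.42 to 3.28, adjusted p = 0.454) and by 1.96 at 3d (SE 0.71, adjusted p = 0.608), by edgeR. Neither passed the test, and 0 of 10 members were called at either time, as were 0.0% of genes. Those at an unadjusted p under 0.05 were 1 and 1 (10.1% and 8.15% of genes), Cacna2d1 each time, and DESeq2 called 0 and 0.

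Without the glia-rich wells, Cacna2d1 at 1d was at 329, 167, 333 and 233 CPM after SNI and at 19.0, 38.4, 137 and 139 CPM after SCI. Every SNI mouse was above every SCI mouse, as for 3.4% of genes. The log2 difference was 1.76 (SE 0.56, adjusted p = 0.215) by edgeR, and 1.74 with adjusted p = 0.0254 by DESeq2. At 3d, with 3 mice in each group, Cacna2d1 was at 495, 332 and 403 CPM against 84.5, 82.3 and 196 CPM, a log2 difference of 1.83 (SE 0.64, adjusted p = 0.671). Groups at 3d also did not overlap for Cacna1a and Cacnb3, higher after SNI (6.8% of genes), and for Cacnb4, lower after SNI (5.47%). Cacnb4 was at 38.4, 70.4 and 52.5 CPM after SNI and at 84.6, 153 and 100.5 CPM after SCI, a difference of -1.09 (SE 0.56, adjusted p = 0.671). The edgeR test called 0 of 10 members at 1d (0.796% of genes) and 0 at 3d (0.0%) without these wells, with 1 each at an unadjusted p under 0.05 (13.5% and 7.42%), Cacna2d1.

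Other genes of the pathway were counted in 3 lists. Of 16 further subunits, such as Cacna1d and the Cacng family, 13 were tested in whole DRG after SCI and 0 were called. Of 19 regulators of the channels, 1 was called, Rem2, a small GTPase that inhibits calcium channels. Over all genes tested, 2.32% were called. Rem2 was at 19.4, 15.8, 13.8 and 11.3 CPM in uninjured mice and at 8.13, 7.84, 8.10 and 8.67 CPM after SCI. The groups did not overlap (the share of all genes wholly lower is not given here). Rem2 fell by 0.88 on the log2 scale (SE 0.15, adjusted p = 0.0283 by edgeR). Of 33 calcium handling genes (release channels, pumps, buffers and calmodulin targets), 0 were called. At an unadjusted p under 0.05 were 2, 5 and 4 genes of the 3 lists, against 14.6% of all genes. The medians of the lists were 0.03, -0.04 and -0.01 against 0.01 over all genes.

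In sorted neurons with all wells, 0 genes of the 3 lists were called in any injury comparison. With the glia-rich wells left out, 1 of 12 further subunits tested was called at 1d after SNI, Cacng5 (2.31, SE 0.63, adjusted p = 0.0606 by edgeR), against 6.47% of all genes. At 3d 2 were called, against 4.99% of genes, Cacng5 (3.09, SE 0.67, adjusted p = 0.0319 by edgeR) and Cacng3 (8.73, SE 2.65, adjusted p = 0.0950 by edgeR). Cacng3 ran from 0 to 59.2 CPM in naive mice with all wells and from 0 to 25.2 CPM at 3d after SNI, so the groups overlapped. Cacng5 encodes a γ subunit that associates with AMPA receptors. Of 17 regulators tested, 2 were called higher and 1 lower at 1d, and 2 higher at 3d. Stac, an adaptor of L-type channels, differed by 3.69 (SE 1.04, adjusted p = 0.0695) at 1d and by 3.58 (adjusted p = 0.0896) at 3d, by edgeR. With all wells Stac ran from 0.0260 to 40.9 CPM in naive mice. After SNI it ran from 0.125 to 57.1 CPM at 1d and from 0 to 26.5 CPM at 3d. Rims2, a scaffold of the presynaptic release site, fell by 1.61 (SE 0.37) at 1d, and Usp5, a deubiquitinase, rose by 0.84 (SE 0.21) at 3d. Of 31 calcium handling genes tested, 2 were higher at 1d and 4 higher and 2 lower at 3d. Camk4, a calcium and calmodulin dependent kinase, rose by 2.88 (SE 0.46, adjusted p = 0.00701) and 2.84 (SE 0.49, adjusted p = 0.0129), and was also higher than after SCI at 1d (2.52, SE 0.53, adjusted p = 0.0557). With all wells the naive and SNI groups overlapped for Cacng5, Stac, Rims2 and Usp5, but not for Camk4. Whether these calls hold without the RUVr factors is not given here.

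Between the 2 preparations, where 32.1% of all genes were called and 14.4% were lower, 5 of 12 further subunits were lower in sorted cells, led by Cacng7 (-5.78, SE 0.71) and Cacnb1 (-3.40, SE 0.53), 6 of 18 regulators were lower and 1 higher, and 8 of 33 calcium handling genes were lower and 3 higher. Together the members took a median of 0.112% and 0.115% of reads per mouse in uninjured and SCI ganglia. In sorted neurons the medians were 0.0335% (naive), 0.0470% and 0.0597% (1d and 3d after SNI) and 0.0312% and 0.0307% (1d and 3d after SCI).

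As a description, levels were also correlated across mice, as Pearson's r of log2(CPM + 1). Mice share group, the set named in the titles and glia content, and no p is given. Over the 8 whole DRG libraries, the genes most like Cacna2d1 were Dsel (r = 0.980), Etnppl (0.978) and 2310043M15Rik (0.978). Over the 22 mice of sorted neurons they were Bdnf (0.926), Rcan1 (0.913) and Plcd1 (0.903). Among the members, the nearest to Cacna2d1 was Cacna1e in whole DRG (0.882) and Cacna1b in sorted neurons (0.758). Cacna1a ran closest to Cacna1c in whole DRG (0.910) and to Cacna1b in sorted neurons (0.905), and Cacna1h to Cacnb3 in whole DRG (0.929).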

How the data were processed

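The deposited files hold raw counts per gene, whole numbers that the authors made with cutadapt, STAR 2.5.3a and HTSeq 0.6.1 on mm10. The 5 HTSeq summary lines were left out (no feature 2.01% to 11.8%, not unique 21.5% to 52.3% of reads). A further 7 deposited tables hold the authors' DESeq2 fold changes and p-values with 123 per-sample columns that match no sample here. None was used, so wild type and DLK knockout SNI ganglia were not analysed here. The 3 wells of each mouse were summed. Levels are CPM, on TMM-scaled totals for mice (whole DRG and sorted neurons scaled separately) and plain totals for wells. Genes were kept at a mean count of at least 10 (whole DRG and preparation comparison) or at least 20 reads in 1 mouse (neurons), leaving 17616, 18205 and 23507 genes. The main test was edgeR 4.0.16 quasi-likelihood (TMM, Benjamini-Hochberg over all genes tested, called at an adjusted p below 0.1), in neurons with 2 RUVr factors from centered residuals and all groups in 1 fit. DESeq2 1.42.0 was an alternative, in R 4.3.3. Scripts were tested on simulated data. Gene models were GENCODE vM21 (53274 identifiers matched). Named genes were all members, genes called in the 3 lists, and the 3 genes most like Cacna2d1. Where the labels give no separate cultures, p-values measure the spread between mice. In fits with the 2 RUVr factors, which came from residuals of the same mice, they measure only the spread left after those factors. The members and lists were chosen with earlier results of these data known. Replicate numbers did not pair the samples (correlation of deviations -0.158 to 0.257 in whole DRG and 0.0913 to 0.191 in sorted neurons).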

Additional observations from a re-analysis of the deposited data

Results flagged for a closer look

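Among 70 groups of member values, 18 held a mouse that stood apart by Dixon's test. Its gap to the nearest neighbor was large for the range of the group. The chance rate of about 1 in 20 groups assumes independent values with a normal spread. These values were CPM without logs, many of them low, and the members share mice. The count of 18 therefore cannot be read as an excess over that rate. Levels are in CPM with all wells.

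In whole DRG, SCI replicate 3 stood above the other injured mice for Cacna1c (108, nearest 84.5) and Cacna1h (81.2, nearest 65.6). Cacna2d1 was lowest in SCI replicate 2 (301, nearest 324), and Cacnb3 was highest in uninjured replicate 1 (298, nearest 261).

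In sorted neurons, naive replicate 5 stood above the other naive mice for Cacna1c (43.5), Cacna1e (13.9) and Cacna2d2 (11.2), and naive replicate 1 for Cacna2d3 (77.1, nearest 23.8). SNI 1d replicate 4, the mouse with the fewest reads, stood above its group for Cacna1a (13.9, nearest 6.24), Cacna1c (12.8), Cacna1e (12.8), Cacna1h (2.5) and Cacna2d2 (0.632). At 3d after SNI, Cacna1e was highest in replicate 1 (1.90) and Cacna1h in replicate 2 (2.39). After SCI, Cacna1e was highest in replicate 4 at 1d (12.0, nearest 0.842), Cacnb4 was lowest in replicate 1 at 1d (62.7, nearest 131), and Cacnb3 was lowest in replicate 3 at 3d (0.161, nearest 21.0), the mouse with glia-rich wells only.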

How the results depend on the processing

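Alternatives that combine settings without the glia-rich wells, and those on the FACS set of the titles alone, were chosen after seeing the data. DESeq2 called 2 members in whole DRG (929 genes against 408 by edgeR, and 549 with all genes of at least 1 read), 1 member at 3d after SNI, 1 at 3d after SCI, and, without the glia-rich wells, 1 each at 1d and 3d after SNI and 1 in SNI against SCI at 1d. The DESeq2 shares over all genes in sorted neurons are not given here, so those counts have no background beside them. Without the glia-rich wells edgeR called 1 member at 1d and 1 at 3d after SNI, also with DESeq2 size factors (1 and 1) and with residuals not centered (1 and 1), and 0 with no RUVr factors. On the FACS set alone 0 were called. The permutation test put 8 members below an unadjusted p of 0.05 between preparations, with no share over all genes given. Of these, 6 were the members that lay wholly lower in sorted cells, as did 34.8% of genes. Leaving out 1 mouse gave 0 to 2 called at 1d after SNI, 0 to 1 at 3d, 0 to 1 in SNI against SCI at 1d, 3 to 6 between preparations, and 0 in the other comparisons.

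With a replicate block, 0 members were called in whole DRG (127 genes). In sorted neurons the block and the set of the titles replaced the RUVr factors, whose removal alone also lost the call, so the effect of the block cannot be told apart. There 0 were called, and the log2 difference of Cacna2d1 was 0.67 at 1d and 1.04 at 3d after SNI (0.86 and 1.76 without the glia-rich wells). No other call changed in these fits, and 2 of 8 whole DRG mice correlated best with their own number.

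Of 3677 member values under an alternative, 719 had another sign, and in 9 of these the value and the value with all wells and mice each exceeded its SE. With all wells at 3d after SNI the values were -1.02 for Cacna1a and -1.24 for Cacna1b. Without the glia-rich wells Cacna1a was 0.74 on the FACS set and 0.16 to 0.52 over left-out mice, and Cacna1b was 0.48 and -0.15 to 0.56, with 0.45 on the FACS set with all wells (over left-out mice with all wells, -1.44 to 0.07 and -1.80 to 0.27). Cacna1h in SNI against SCI at 3d was -4.88 with all mice and 2.54 on the FACS set. Every member had at least 262 reads per mouse in whole DRG (Cacna1e lowest), while Cacna1c, Cacna1e, Cacna1h and Cacna2d2 had 0 reads in some mice of sorted neurons, which limits what those fits could detect.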
